A study of Sus scrofa domesticus with 8 samples.

Results

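The genes described here encode the chemokines, the interleukins and the tumor necrosis factor (TNF) family, with their receptors. A gene was included when the symbol in the array annotation began with CCL, CXCL, CCR, CXCR or IL followed by a digit, or with TNFSF or TNFRSF, or was LIF or VCAM1. This gave 114 genes on 124 array features, out of 10905 named genes and 27558 features. They comprise 62 ligands (26 chemokine ligands, 30 interleukins including LIF, and 6 TNF ligands) and 50 receptors and binding proteins (8 for chemokines, 32 for interleukins and 10 of the TNF family). VCAM1, a leukocyte adhesion molecule, and IL4I1, an enzyme that oxidises amino acids and only shares the prefix, belong to neither side. Where a gene had several features, the one with the highest mean over the 8 arrays was used.

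The cells were porcine ovarian granulosa cells, which line the follicle and surround the oocyte. They came from 43 crossbred Landrace gilts of a median age of 170 days and a weight of 98 kg and were collected after slaughter. All groups were untreated and differed only in time: the 0 h cells had not been cultured, and the 48 h, 96 h and 144 h cells had been kept at 37 °C under 5% CO2 in DMEM with 2% fetal bovine serum. The submitters' treatment notes also speak of cultivation for 30 days, longer than the 144 h of the last group. RNA of each time was hybridised to 2 Affymetrix whole-transcript arrays, 8 in all, called array 1 and array 2 after the number in their labels. The labels do not tell whether both arrays of a time stem from different animals, pools or cultures. The p-values therefore rest on the spread between arrays alone, and this spread may be technical.

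Chemokines are small secreted proteins that attract leukocytes along a gradient, and each is read by one or a few G protein-coupled receptors. Interleukins and TNF family ligands act mostly on neighbouring cells, and their receptors pass the signal to JAK and STAT proteins or to the transcription factor NF-kB. In the ovary this signalling is best known around ovulation, when granulosa cells release chemokines and cytokines and leukocytes enter the follicle wall.

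All levels are log2 intensities, on which a step of 1 is 2-fold. A gene is said to have risen or fallen where limma's moderated test gave a Benjamini-Hochberg adjusted p below 0.05 over all features. Errors of differences are standard errors (SE) of the fit, with n = 2 arrays per time. No detection call was used. Levels below an array's lower quartile, which lay between 3.13 and 3.25, are therefore not shown to be above background, and differences from or to them are given as measured. Of the 114 genes, 57 exceeded the 40th percentile of the array on 2 or more arrays, and 27 lay below the lower quartile on both arrays at every time. These 27 were 12 interleukins, 10 interleukin receptors, 2 chemokine ligands (CCL20 and CXCL9, named after their values were seen), 2 TNF ligands and 1 chemokine receptor. Levels were compared within a gene and never between genes.

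The arrays of 144 h lay farther apart than those of the other times. Across features, both arrays of 1 time correlated at 0.993 for 0 h and 48 h, 0.997 for 96 h and 0.985 for 144 h. At 144 h, the arrays differed by more than 1 log2 unit for 6 of the 114 genes and for 1.93% of all features, against 0 genes at 0 h and 48 h and 1 at 96 h. IL33 and TNFSF10 were higher on array 1 of 144 h, and CXCL8, CXCR4, IL1RL1 and TNFRSF8 were higher on array 2. Of 16 measured macrophage and leukocyte marker genes, 15 were also higher on array 2 of 144 h, with a median gap of 0.52, against 0.02 over all features. The mean of 7 fibroblast and stroma markers went the other way, at 9.78 on array 1 and 9.20 on array 2. The part of these markers in the gaps was not tested.

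The comparison of 48 h with 0 h covers the first interval in culture. The chemokine CCL2, the cytokines LIF, IL1A, IL6 and IL18 and the receptors IL1R1, IL1RL1, IL4R and IL10RA rose, each by at least 1.78 log2 units. The interferon-induced chemokine CXCL10, the receptor IL13RA2 and the death ligand TNFSF10 fell by 4.77, 3.24 and 3.10. In all, 24 of the 114 genes (21.1%) were higher, where 18.1% of all named genes were, and 12 (10.5%) were lower, where 15.9% were. By side, 10 of 62 ligands and 13 of 50 receptors were higher, and 6 and 5 were lower. The median difference of the 114 genes was -0.05, and -0.04 over all features. The count of lower genes rested on small differences: it was 5 to 7 when any one array of 0 h, 48 h or 96 h was left out, and 17 without either 144 h array.

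At 96 h, 18 genes (15.8%) were higher than at 0 h, against 21.5% of all named genes, and 18 (15.8%) were lower, against 23.3%. At 144 h, 20 (17.5%) were higher, against 19.2%, and 14 (12.3%) lower, against 17.6%. The share of members that changed was thus near or below that of all genes in each of these comparisons, which share the 0 h arrays. These shares are not matched for level. The 40th percentile was exceeded on 2 or more arrays by 57 of the 114 genes and by 18019 of the 27558 features. The 96 h count of lower genes was 11 without array 1 of 96 h. The 144 h count of lower genes was 5 without array 2 of 0 h and 9 without array 1 of 0 h or array 1 of 144 h. In a moderated F test across all times, 42 of the genes (36.8%) changed, against 51.9% of named genes.

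**Figure D1:**
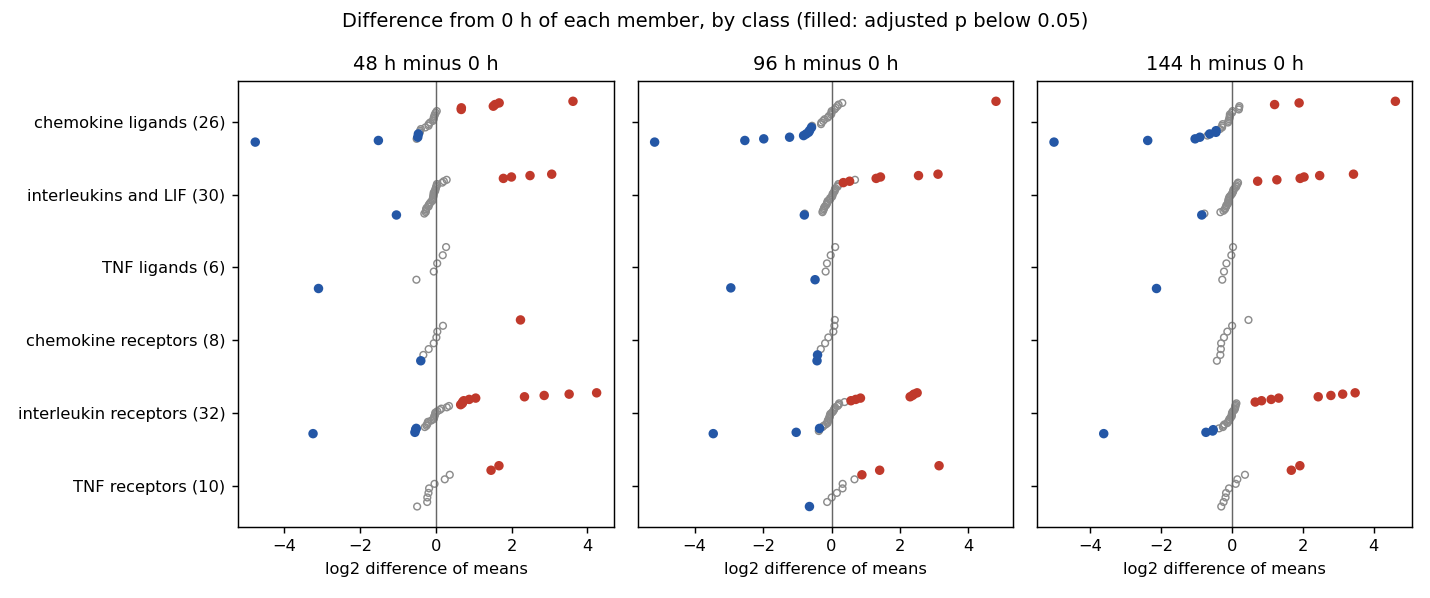
Each point is 1 gene, placed by its log2 difference from 0 h at 48 h, 96 h and 144 h (horizontal axes) and by class (vertical axis, number of genes in brackets; VCAM1 and IL4I1 are not drawn). Filled points, red for higher and blue for lower, have an adjusted p below 0.05: most genes lie near 0, while CCL2 reaches 4.81 and CXCL10 -5.17 at 96 h.

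Chemokine ligands were called in both directions. At 48 h, 6 of 26 (23.1%) were higher and 4 (15.4%) lower, near the 18.1% and 15.9% of named genes. At 96 h, 1 (3.85%) was higher and 9 (34.6%) lower, against 21.5% and 23.3%, and at 144 h 3 (11.5%) were higher and 7 (26.9%) lower, against 19.2% and 17.6%. With 6 to 32 genes in a class, 1 gene moves these shares by several points, and no difference from all genes was tested. The one that was higher at 96 h was CCL2, which attracts monocytes. CCL2 read 6.32 and 6.28 at 0 h, 9.84 and 10.00 at 48 h, 11.13 and 11.08 at 96 h, and 10.79 and 11.03 at 144 h. Every cultured array was far above both 0 h arrays, and both 96 h arrays were above both 48 h arrays. The differences from 0 h were 3.62 ± 0.12 (SE), 4.81 ± 0.12 and 4.61 ± 0.12 (adjusted p = 1e-06, 1.62e-07 and 2.27e-07). CCL2 rose again between 48 h and 96 h, by 1.19 ± 0.12 (adjusted p = 0.000325). In these bulk samples, more RNA per cell and more cells of a type that makes it cannot be told apart, which holds for every gene here.

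CXCL10 went the other way and showed the largest fall of the 114 genes. This chemokine is induced by interferon and draws activated T cells through the receptor CXCR3. CXCL10 read 7.48 and 8.07 at 0 h, 3.22 and 2.79 at 48 h, 2.58 and 2.63 at 96 h, and 2.65 and 2.87 at 144 h. Both 0 h arrays were more than 4 log2 units above every cultured array, and the 96 h and 144 h levels lay below the lower quartile. The differences were -4.77 ± 0.22, -5.17 ± 0.22 and -5.01 ± 0.22 (adjusted p = 3.47e-06, 1.07e-06 and 1.53e-06). CXCL11, which binds the same receptor, read 3.53 and 3.48 at 0 h and between 2.83 and 3.24 on the cultured arrays. It fell by 0.67 ± 0.14 at 96 h (adjusted p = 0.00582). Its calls at 48 h (-0.48, adjusted p = 0.0378) and 144 h (-0.44, adjusted p = 0.0466) were lost without any one array of 0 h, 48 h or 96 h, and the latter also without array 1 of 144 h. Both were also lost under each of 3 other normalizations. Over the 8 fits that each left out 1 array, the adjusted p ran from 0.0102 to 0.179 and from 0.00806 to 0.169.

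CCL4, a chemokine that attracts monocytes and T cells, fell in steps. Its arrays read 5.60 and 5.74 at 0 h, 4.36 and 3.95 at 48 h, 3.23 and 3.05 at 96 h, and 3.36 and 3.24 at 144 h. The 48 h arrays lay between those of 0 h and those of the later times, with no overlap. The differences from 0 h were -1.52 ± 0.16, -2.53 ± 0.16 and -2.37 ± 0.16 (adjusted p = 0.000202, 6.97e-06 and 1.33e-05). The further fall from 48 h to 96 h was -1.02 ± 0.16 (adjusted p = 0.00203).

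Differences of other leukocyte chemokines from 0 h were smaller in size. CCL8, a monocyte chemokine, fell by 1.23 ± 0.27 at 96 h (adjusted p = 0.00681), from 4.54 and 4.55 at 0 h to 3.30 and 3.33. Its 48 h arrays, at 3.78 and 4.30, were already below 0 h (-0.51, adjusted p = 0.209). Its 144 h arrays read 3.22 and 4.07, both below 0 h, and that call (-0.90, adjusted p = 0.0353) was lost without either array of 0 h or 96 h or without array 1 of 144 h (adjusted p from 0.00205 to 0.132 over the 8 fits). CCL3L1, a relative of CCL4, fell from 4.94 and 5.01 to 4.11 and 4.20 at 96 h, by 0.82 ± 0.15 (adjusted p = 0.00259). At 48 h it read 4.63 and 4.46, also below 0 h (-0.42, adjusted p = 0.0676). At 144 h it differed by -0.62 (adjusted p = 0.0134), a call lost without either 0 h array (adjusted p from 0.0021 to 0.0762). CCL25, best known from thymus and gut, read 4.68 and 4.91 at 0 h and 4.02 and 4.29 at 96 h. It fell by 0.64 ± 0.14 (adjusted p = 0.00638), a call lost without array 2 of 0 h or array 1 of 96 h (adjusted p from 0.00593 to 0.0662). CCL24, which attracts eosinophils, differed by -0.74 ± 0.25 at 96 h (adjusted p = 0.0471), a call lost without any one array of 0 h, 48 h or 96 h (adjusted p from 0.00254 to 0.19) and under each of 3 other normalizations. Its arrays of 48 h, at 4.22 and 4.51, were below the 4.75 and 4.92 of 0 h (-0.47, adjusted p = 0.217). These 48 h differences of CCL8, CCL3L1 and CCL24 became calls without either 144 h array (lowest adjusted p = 0.0491, 0.016 and 0.0268). The steps of the same 3 genes from 48 h to 96 h, -0.72, -0.39 and -0.27, were not called (adjusted p = 0.0828, 0.0852 and 0.471). Those of CCL8 and CCL3L1 also became calls without either 144 h array, and that of CCL24 did not. The data therefore do not place the fall of these genes in one interval.

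The neutrophil chemokines CXCL8 and CXCL2, both ligands of CXCR2, were highest at 48 h. CXCL2 read 5.40 and 5.35 at 0 h, 6.80 and 6.99 at 48 h, 4.72 and 4.89 at 96 h, and 5.22 and 5.93 at 144 h. On this feature, both 48 h arrays were above all others, and both 96 h arrays below all others. It rose by 1.52 ± 0.21 at 48 h (adjusted p = 0.00107) and was 2.09 ± 0.21 lower at 96 h than at 48 h (adjusted p = 0.000292). One of its other features differed by 2.03 at 48 h and another, at low levels, by 0.65 with an adjusted p of 0.147. At 96 h the first of these read 4.02 and 4.03, between its 0 h arrays of 4.11 and 3.68. These features did not call a rise of CXCL2 from 96 h to 144 h (adjusted p = 0.305 and 0.143). Its rise from 96 h to 144 h (0.77, adjusted p = 0.0357) was lost without any one array other than array 1 of 144 h (adjusted p from 0.00192 to 0.199). CXCL2 was 1.32 lower at 144 h than at 48 h (adjusted p = 0.00769), a call lost without array 2 of 48 h (adjusted p from 0.000548 to 0.0614).

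CXCL8 read 4.81 and 4.99 at 0 h, 6.45 and 6.70 at 48 h, 4.24 and 4.35 at 96 h, and 4.07 and 5.62 at 144 h. The 48 h arrays were again the highest, and the 144 h arrays lay on either side of those of 0 h. It rose by 1.67 ± 0.41 at 48 h (adjusted p = 0.016), a call lost without either array of 0 h or of 48 h (adjusted p from 6.17e-05 to 0.0875). It was 2.28 ± 0.41 lower at 96 h than at 48 h (adjusted p = 0.00419). At 144 h its difference from 0 h was -0.05 with both arrays, and 0.72 without array 1 and -0.83 without array 2 of 144 h. Its lower level at 144 h than at 48 h (-1.73, adjusted p = 0.0377) was lost without any one array of 0 h, 48 h or 96 h (adjusted p from 0.000151 to 0.178).

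CXCL12, CXCL14 and CXCL16 each followed a course of their own. CXCL12, the ligand of CXCR4, read 3.05 and 3.27 at 0 h, 4.79 and 4.65 at 48 h, 3.27 and 3.22 at 96 h, and 4.46 and 4.28 at 144 h. It was near the lower quartile at 0 h and 96 h and above it, on both arrays, at 48 h and 144 h. The differences from 0 h were 1.56 ± 0.13 at 48 h, 0.09 ± 0.13 at 96 h and 1.21 ± 0.13 at 144 h (adjusted p = 5.8e-05, 0.646 and 0.000177). It was lower at 96 h than at 48 h by 1.48 ± 0.13, and higher at 144 h than at 96 h by 1.12 ± 0.13 (adjusted p = 0.000134 and 0.000822).

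CXCL16, a chemokine made as a membrane protein that binds CXCR6, read 6.63 and 6.72 at 0 h, 7.34 and 7.36 at 48 h, 6.72 and 6.98 at 96 h, and 8.56 and 8.59 at 144 h. Only the 144 h arrays stood well above the rest. It rose by 1.90 ± 0.12 at 144 h (adjusted p = 1.15e-05) and by 0.67 ± 0.12 at 48 h (adjusted p = 0.00407), and the 96 h difference was 0.17 (adjusted p = 0.314). From 96 h to 144 h the rise was 1.73 ± 0.12 (adjusted p = 0.000131). CXCL14, a chemokine of epithelia, read 6.91 and 6.92 at 0 h, 6.85 and 6.97 at 48 h, 5.07 and 4.80 at 96 h, and 5.39 and 6.37 at 144 h. The first 4 arrays were alike, and all later ones were lower. It fell by 1.98 ± 0.28 at 96 h (adjusted p = 0.000581). Its 144 h call (-1.03, adjusted p = 0.0219) was lost without either 0 h array (adjusted p from 0.000217 to 0.0943), and its rise from 96 h to 144 h (0.95, adjusted p = 0.0426) without any one array other than array 1 of 144 h (adjusted p from 0.000987 to 0.219). The other 13 chemokine ligands had time means that spanned between 0.08 and 1.26 log2 units. CCL5, named after its values were seen and the widest of them, rose by 0.67 at 48 h and fell by 0.59 at 96 h (adjusted p = 0.00861 and 0.0114). The rise was lost without array 2 of 0 h and the fall without array 1 of 0 h or of 96 h (adjusted p from 0.0021 to 0.0603 and from 0.00276 to 0.0943). CCL5 was 1.26 lower at 96 h than at 48 h (adjusted p = 0.000478).

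**Figure D2:**
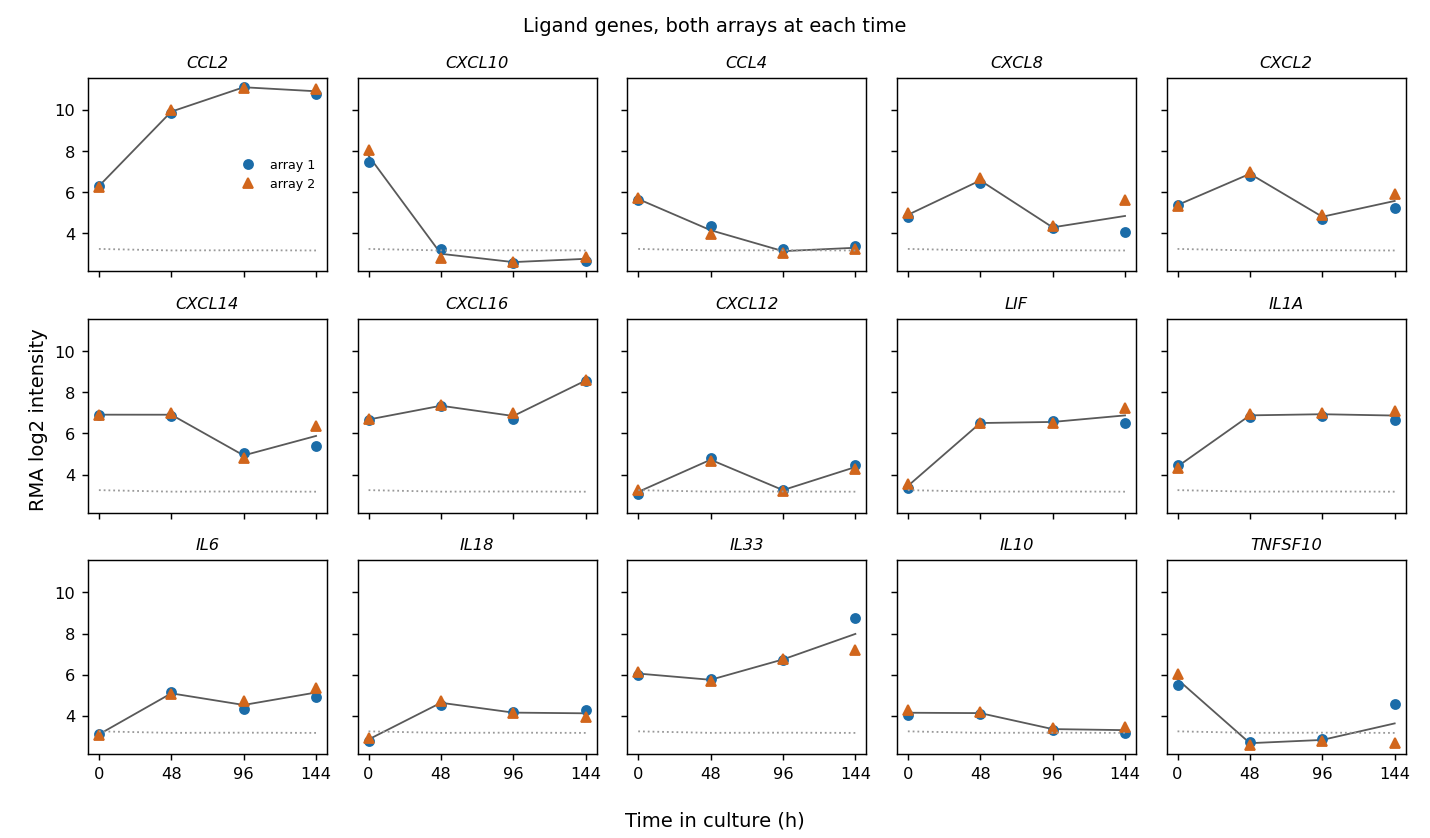
Log2 intensity (vertical axis) of 15 ligand genes against time in culture (horizontal axis), with a circle for array 1 and a triangle for array 2 of each time, a line through the time means and a dotted line at the mean lower quartile of the arrays. CCL2, LIF, IL1A, IL6 and IL18 are above both 0 h arrays at every later time, CXCL10 and CCL4 are below them, and the 144 h arrays are wide apart for CXCL8, IL33 and TNFSF10.

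Among the interleukins and LIF, the higher and lower counts of 30 were 4 and 1 at 48 h, 6 and 1 at 96 h, and 6 and 1 at 144 h. The higher shares (13.3%, 20% and 20%) were near or below those of named genes (18.1%, 21.5% and 19.2%), and the lower share of 3.33% at each time was below theirs (15.9%, 23.3% and 17.6%). LIF, a cytokine of the IL-6 family that signals through the shared receptor chain gp130, had the largest rise. Its arrays read 3.35 and 3.54 at 0 h, 6.50 and 6.51 at 48 h, 6.59 and 6.53 at 96 h, and 6.50 and 7.25 at 144 h. The 0 h arrays were just above the lower quartile, and all cultured arrays lay far above them. LIF differed from 0 h by 3.06 ± 0.22, 3.11 ± 0.22 and 3.43 ± 0.22 (adjusted p = 2.91e-05, 1.36e-05 and 1.08e-05).

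IL1A, a cytokine that works inside and outside the cell and binds IL1R1, read 4.47 and 4.32 at 0 h, 6.81 and 6.95 at 48 h, 6.87 and 7.0 at 96 h, and 6.64 and 7.10 at 144 h. All 6 cultured arrays were at a similar height, above both 0 h arrays. Its differences were 2.49 ± 0.16, 2.54 ± 0.16 and 2.48 ± 0.16 (adjusted p = 1.99e-05, 8.9e-06 and 1.35e-05). IL6, the name-giving cytokine of its family, read 3.14 and 3.05 at 0 h, below the lower quartile, then 5.13 and 5.05 at 48 h, 4.34 and 4.71 at 96 h, and 4.93 and 5.33 at 144 h. Both 96 h arrays were below those of 48 h and 144 h. IL6 differed from 0 h by 2.00 ± 0.17, 1.43 ± 0.17 and 2.04 ± 0.17 (adjusted p = 7.83e-05, 0.000262 and 5.22e-05). The dip at 96 h was called against 48 h (-0.57, adjusted p = 0.0411) and 144 h (0.61, adjusted p = 0.0394). Both calls were lost without any one array of 0 h or 48 h or array 1 of 96 h, and the second also without array 2 of 96 h or of 144 h (adjusted p from 0.0164 to 0.271 and from 0.0138 to 0.267).

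IL18 and IL33 belong to the IL-1 family, whose members are made as precursors in many epithelial and stromal cells. IL18 read 2.76 and 2.94 at 0 h, below the lower quartile, 4.55 and 4.72 at 48 h, 4.16 and 4.15 at 96 h, and 4.28 and 3.96 at 144 h. Every cultured array was above both 0 h arrays, by mean differences of 1.78 ± 0.14, 1.31 ± 0.14 and 1.27 ± 0.14 (adjusted p = 5.17e-05, 0.000146 and 0.000247). IL33, the ligand of IL1RL1, read 5.99 and 6.12 at 0 h, 5.80 and 5.70 at 48 h, 6.70 and 6.78 at 96 h, and 8.76 and 7.20 at 144 h. Both 144 h arrays were above all others but were 1.56 apart. With all arrays, its only call against 0 h was at 144 h, 1.93 ± 0.41 (adjusted p = 0.00729). That difference was 2.71 without array 2 and 1.15 without array 1 of 144 h. At 96 h both arrays were already above both 0 h arrays (0.69 ± 0.41, adjusted p = 0.224). The SE takes in the gap between the 144 h arrays, and the 96 h difference was called without either of them. The data therefore do not place the rise of IL33 after 96 h. It was 2.23 ± 0.41 higher at 144 h than at 48 h (adjusted p = 0.0127), a call lost without either 48 h array (adjusted p from 3.8e-05 to 0.0808).

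IL10, a cytokine that dampens inflammation, was the interleukin that fell at 96 h and 144 h. Its arrays read 4.02 and 4.28 at 0 h, 4.10 and 4.16 at 48 h, 3.32 and 3.39 at 96 h, and 3.14 and 3.46 at 144 h. The 0 h and 48 h arrays overlapped, and the later arrays were lower. It fell by 0.79 ± 0.14 at 96 h and 0.85 ± 0.14 at 144 h (adjusted p = 0.00256 at both). IL1B2, a pig gene nearly identical to IL1B, read 3.47 and 4.28 at 0 h and between 2.67 and 3.36 in culture, mostly near the lower quartile. Its fall at 48 h (-1.04 ± 0.30, adjusted p = 0.0304) was lost without array 2 of 0 h or either 48 h array (adjusted p from 0.0143 to 0.181). Probes may not separate these copies, so the signal is uncertain as to gene. IL9 lay below the lower quartile at every time, and its calls at 96 h against 48 h (0.46, adjusted p = 0.0472) and at 144 h against 96 h (-0.51, adjusted p = 0.039) were lost without either array of 0 h or 96 h. They were also lost without array 1 of 48 h and array 1 of 144 h, respectively (adjusted p from 0.0356 to 0.28 and from 0.0395 to 0.253 over the 8 fits). The other 22 interleukins had time means spanning at most 0.73, and 11 of the 12 interleukins that stayed below the lower quartile are among them.

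The TNF ligands gave 1 lower gene at 48 h, 2 at 96 h and 1 at 144 h, of 6 measured (16.7%, 33.3% and 16.7%, against 15.9%, 23.3% and 17.6% of named genes). None was higher by limma, with 1, 0 and 0 higher at an unadjusted p below 0.05. TNFSF10, the death ligand TRAIL, read 5.49 and 6.05 at 0 h, 2.75 and 2.59 at 48 h, 2.87 and 2.78 at 96 h, and 4.57 and 2.69 at 144 h. All cultured arrays were below both 0 h arrays, and all but array 1 of 144 h lay below the lower quartile. The differences were -3.10 ± 0.50, -2.94 ± 0.50 and -2.14 ± 0.50 (adjusted p = 0.00228, 0.0018 and 0.0123). The 144 h call was lost without array 2 of 0 h (adjusted p from 5.89e-05 to 0.0861), and the difference was -3.08 without array 1 and -1.20 without array 2 of 144 h. TNFSF4, the ligand of the costimulatory receptor OX40, differed by -0.48 at 96 h (adjusted p = 0.0232), a call lost without array 1 of 0 h or either 96 h array (adjusted p from 0.0171 to 0.148) and under each of 3 other normalizations. The other 4 TNF ligands had time means spanning between 0.15 and 0.51.

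Interleukin receptors held the largest rises on the receptor side. Of 32, 10 were higher and 4 lower at 48 h, 7 and 3 at 96 h, and 8 and 4 at 144 h. The higher shares were 31.2%, 21.9% and 25%, against 18.1%, 21.5% and 19.2% of named genes, and the lower shares 12.5%, 9.38% and 12.5%, against 15.9%, 23.3% and 17.6%. IL1R1, the signalling receptor of IL1A and IL1B, read 4.13 and 4.24 at 0 h, 8.45 and 8.42 at 48 h, 6.64 and 6.75 at 96 h, and 7.49 and 7.14 at 144 h. The 48 h arrays were the highest, and the arrays of the 4 times did not overlap. Against 0 h, the differences were 4.25 ± 0.14, 2.50 ± 0.14 and 3.13 ± 0.14 (adjusted p = 9.81e-07, 3.99e-06 and 1.76e-06). It was lower at 96 h than at 48 h by 1.74 ± 0.14 (adjusted p = 9.84e-05). Its rise from 96 h to 144 h, 0.62, was called (adjusted p = 0.0153) but lost without either 96 h array (adjusted p from 0.00377 to 0.119).

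IL1RL1 encodes ST2, the receptor of IL33. It read 2.87 and 3.0 at 0 h, below the lower quartile, 6.57 and 6.34 at 48 h, 5.29 and 5.40 at 96 h, and 5.55 and 7.28 at 144 h. All cultured arrays were more than 2 log2 units above the 0 h arrays, and the 144 h arrays lay on either side of those of 48 h. The differences were 3.52 ± 0.45, 2.41 ± 0.45 and 3.48 ± 0.45 (adjusted p = 0.000643, 0.00291 and 0.000551). Between 48 h and 144 h it differed by -0.04, and by 0.82 without array 1 of 144 h and -0.91 without array 2.

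IL4R and IL10RA, the binding chains for IL-4 (and with a partner IL-13) and IL-10, rose and stayed high. IL4R read 5.40 and 5.76 at 0 h, 8.39 and 8.49 at 48 h, 7.88 and 7.87 at 96 h, and 8.10 and 8.65 at 144 h, with differences of 2.86 ± 0.19, 2.30 ± 0.19 and 2.79 ± 0.19 (adjusted p = 2.26e-05, 3.68e-05 and 1.72e-05). IL10RA read 5.33 and 4.84 at 0 h, 7.33 and 7.52 at 48 h, 7.50 and 7.40 at 96 h, and 7.29 and 7.76 at 144 h, with differences of 2.34 ± 0.21, 2.37 ± 0.21 and 2.44 ± 0.21 (adjusted p = 8.42e-05, 4.21e-05 and 5e-05). In both genes every cultured array was above both 0 h arrays by more than 1 log2 unit.

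IL13RA2, which binds IL-13 and is known mainly as a decoy, fell to the bottom of the array. Its arrays read 6.33 and 6.01 at 0 h, 2.88 and 2.97 at 48 h, 2.73 and 2.69 at 96 h, and 2.71 and 2.40 at 144 h. Both 0 h arrays were high and every cultured array lay below the lower quartile. The differences were -3.24 ± 0.15, -3.46 ± 0.15 and -3.61 ± 0.15 (adjusted p = 4.19e-06, 1.33e-06 and 1.41e-06). IL2RG, the gamma chain shared by several interleukin receptors of lymphocytes, read 4.57 and 4.50 at 0 h, 3.98 and 4.02 at 48 h, 3.55 and 3.46 at 96 h, and 3.50 and 4.12 at 144 h. It fell by 1.03 ± 0.19 at 96 h (adjusted p = 0.00256). At 48 h both arrays were already below 0 h (-0.54, adjusted p = 0.0649), a difference called without either 144 h array (lowest adjusted p = 0.00356). Its 144 h call (-0.73, adjusted p = 0.019) was lost without either 0 h array (adjusted p from 0.000419 to 0.0935).

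IL17RC, a chain of the IL-17 receptor, rose by 1.32 ± 0.15 at 144 h (adjusted p = 0.000302), from 4.56 and 4.22 to 5.61 and 5.82. It was 0.94 ± 0.15 higher at 144 h than at 96 h (adjusted p = 0.00398). Its rise at 48 h (0.74, adjusted p = 0.00776) was lost without array 2 of 0 h (adjusted p from 0.00583 to 0.0568). The other 25 interleukin receptors had time means spanning between 0.05 and 1.11. Among them, named after their values were seen, IL17RA, the partner chain of IL17RC, differed by 0.88, 0.85 and 1.11, all called. IL6ST, the gp130 chain through which LIF and IL6 signal, read 8.61 and 8.22 at 0 h and 8.87 to 9.29 in culture, with differences of 0.71, 0.57 and 0.66 (adjusted p = 0.018, 0.0329 and 0.0226). All 3 calls were lost without array 2 of 0 h, and others were lost without either array of 48 h (48 h and 96 h), either array of 96 h (96 h) or array 1 of 144 h (144 h), with adjusted p up to 0.12, 0.204 and 0.148 and down to 0.00684, 0.0131 and 0.00691. IL20RA, also named so, rose at 48 h by 1.05 (adjusted p = 0.000297), with both arrays of 0 h, 96 h and 144 h below the lower quartile. IL18R1 and IL18RAP, the chains of the IL-18 receptor, and the decoy IL1R2 lay below the lower quartile on both arrays at every time.

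**Figure D3:**
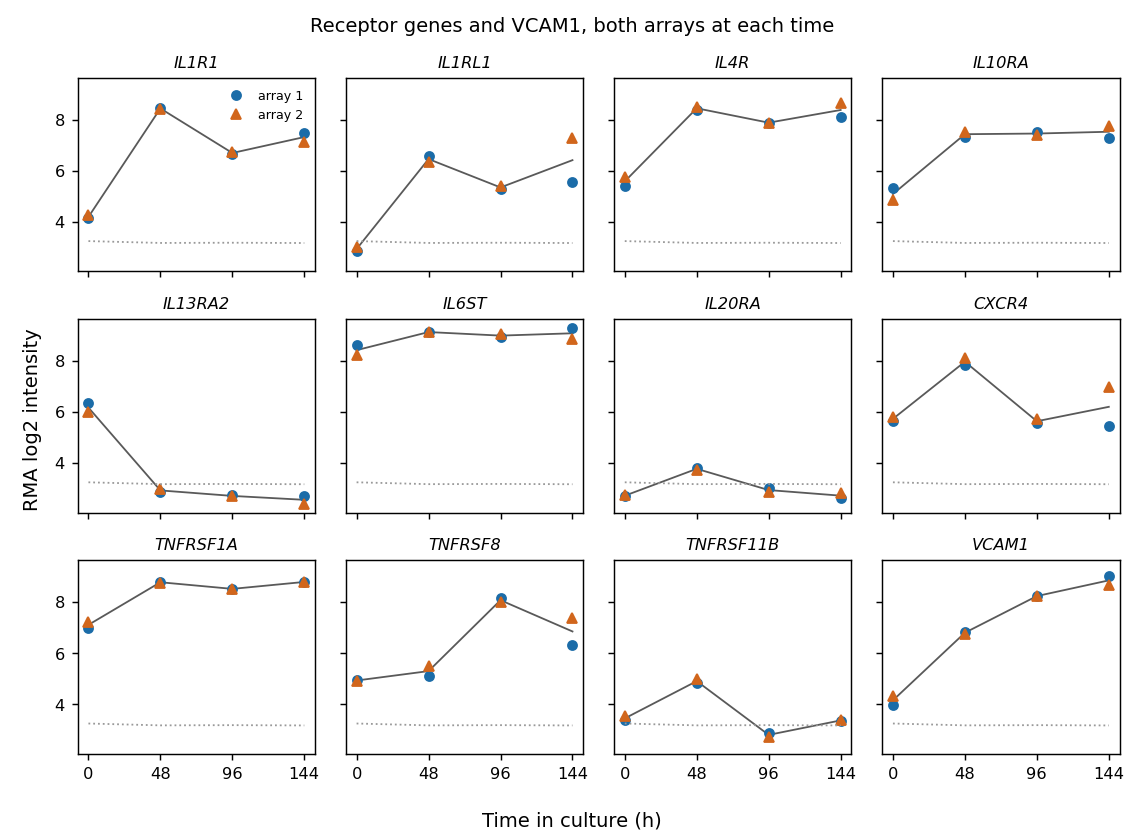
Log2 intensity (vertical axis) of 11 receptor genes and VCAM1 against time in culture (horizontal axis), with a circle for array 1 and a triangle for array 2 of each time, a line through the time means and a dotted line at the mean lower quartile of the arrays. IL1R1, IL1RL1, IL4R, IL10RA, TNFRSF1A and VCAM1 are above both 0 h arrays at every later time, IL13RA2 is below them, and CXCR4, IL20RA and TNFRSF11B are highest at 48 h.

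Of the 8 chemokine receptors, 1 was higher and 1 lower at 48 h (12.5% each, against 18.1% and 15.9% of named genes). At 96 h, 2 were lower (25%, against 23.3% of named genes). None was called by limma at 144 h, where 19.2% of named genes were higher and 17.6% lower. Of the receptors, 0 were higher and 2 lower then at an unadjusted p below 0.05. CXCR4, the receptor of CXCL12, read 5.66 and 5.80 at 0 h, 7.82 and 8.10 at 48 h, 5.55 and 5.71 at 96 h, and 5.43 and 6.96 at 144 h. The 48 h arrays were the highest, and the 0 h and 96 h arrays overlapped. It rose by 2.24 ± 0.41 at 48 h (adjusted p = 0.00403) and was 2.33 ± 0.41 lower at 96 h than at 48 h (adjusted p = 0.00372). At 144 h its difference from 0 h was 0.47 (adjusted p = 0.448), and 1.24 without array 1 of 144 h (adjusted p = 0.000948; up to 0.671 over the 8 fits). Its lower level at 144 h than at 48 h (-1.77, adjusted p = 0.0342) was lost without any one array of 0 h, 48 h or 96 h (adjusted p from 0.000164 to 0.17). CXCR2, the receptor of CXCL8 and CXCL2, lay near the lower quartile, and its call at 144 h against 96 h (-0.39, adjusted p = 0.0452) was lost without any one array (adjusted p from 0.0561 to 0.283). The other 6 chemokine receptors had time means spanning at most 0.42, CXCR3 among them.

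The TNF receptors gave 2 higher genes of 10 at 48 h, 3 higher and 1 lower at 96 h, and 2 higher at 144 h. The higher shares of 20%, 30% and 20% stand beside 18.1%, 21.5% and 19.2% of named genes. The lower shares of 0%, 10% and 0% stand beside 15.9%, 23.3% and 17.6%. TNFRSF1A, the widely expressed receptor for TNF itself, read 6.99 and 7.22 at 0 h, 8.79 and 8.76 at 48 h, 8.51 and 8.52 at 96 h, and 8.78 and 8.79 at 144 h. Every cultured array was more than 1 log2 unit above the 0 h arrays. The differences were 1.67 ± 0.12, 1.41 ± 0.12 and 1.68 ± 0.12 (adjusted p = 2.58e-05, 3.19e-05 and 1.67e-05).

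TNFRSF8, which encodes CD30, a receptor of activated lymphocytes, changed late. Its arrays read 4.94 and 4.91 at 0 h, 5.10 and 5.49 at 48 h, 8.16 and 7.98 at 96 h, and 6.33 and 7.36 at 144 h. The 96 h arrays were the highest and the 144 h arrays lay between them and the earlier ones. It rose by 3.14 ± 0.30 at 96 h and 1.92 ± 0.30 at 144 h (adjusted p = 6.6e-05 and 0.00146), and the 48 h difference was 0.37 (adjusted p = 0.409). It was 2.78 ± 0.30 higher at 96 h than at 48 h (adjusted p = 0.00036). The later calls, -1.22 at 144 h against 96 h (adjusted p = 0.0212) and 1.55 at 144 h against 48 h (adjusted p = 0.0155), were lost without either 96 h array and without either 48 h array (adjusted p up to 0.126 and 0.116 over the 8 fits, and down to 0.00096 and 0.00104).

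TNFRSF11B, the soluble decoy osteoprotegerin, read 3.37 and 3.52 at 0 h, 4.83 and 4.98 at 48 h, 2.89 and 2.71 at 96 h, and 3.34 and 3.39 at 144 h. Both 48 h arrays stood above all others and both 96 h arrays below all others. It rose by 1.46 ± 0.12 at 48 h (adjusted p = 6.7e-05; 1.04 by its other feature) and fell by 0.65 ± 0.12 at 96 h (adjusted p = 0.00316; -0.33, adjusted p = 0.21, by its other feature). TNFRSF21, a death domain receptor, rose by 0.89 ± 0.18 at 96 h (adjusted p = 0.00498), from 3.35 and 3.47 to 4.25 and 4.36. TNFRSF18, the costimulatory receptor GITR, read 4.49 and 5.80 at 96 h against 3.80 and 4.16 at 48 h. That call (1.16, adjusted p = 0.0478) was lost without either array of 0 h or 48 h or array 2 of 96 h (adjusted p from 0.00373 to 0.212). The other 5 TNF receptors had time means spanning between 0.22 and 0.55.

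VCAM1, to which leukocytes bind through integrins, rose over the whole culture. Its arrays read 3.98 and 4.32 at 0 h, 6.83 and 6.76 at 48 h, 8.24 and 8.23 at 96 h, and 9.01 and 8.68 at 144 h. The arrays of the 4 times did not overlap, and each time was above the one before. The differences from 0 h were 2.64 ± 0.16, 4.08 ± 0.16 and 4.69 ± 0.16 (adjusted p = 1.14e-05, 7.45e-07 and 4.87e-07), and from 48 h to 96 h 1.44 ± 0.16 (adjusted p = 0.000392). The step from 96 h to 144 h (0.61, adjusted p = 0.0257) was lost without either 96 h array or array 1 of 144 h (adjusted p from 0.0118 to 0.134). IL4I1 differed by -0.60 at 48 h and -0.61 at 144 h (adjusted p = 0.0339 and 0.0309), from 3.92 and 3.97 at 0 h. Both calls were lost without either 0 h array, and without array 1 of 48 h or of 144 h respectively (adjusted p up to 0.202 and 0.132, and down to 0.0247 and 0.0246).

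The comparisons between later times follow the genes through the middle and the end of the culture. From 48 h to 96 h, 7 (6.14%) were higher, against 14.3% of named genes, and 19 (16.7%) lower, against 16.9%. The 19 held 8 chemokine ligands, CXCL2, CXCL8, CXCL12, CXCL14 and CCL4 among them, 4 interleukin receptors, 3 interleukins, 2 TNF ligands, CXCR4 and TNFRSF11B. The 8 were 30.8% of the chemokine ligands, against the 16.9% of named genes. For interleukin receptors, interleukins and TNF ligands the shares were 12.5%, 10% and 33.3%. The 7 held CCL2, VCAM1, TNFRSF8 and TNFRSF21. From 96 h to 144 h, 11 (9.65%) were higher, against 13%, and 3 (2.63%) lower, against 10.1%. Of the 11, 6 were chemokine ligands, which is 23.1% of that class, against the 13% of named genes. No difference of a class share from that of all genes was tested. From 48 h to 144 h, 6 (5.26%) were higher, against 5.55%, and 10 (8.77%) lower, against 4.91%.

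These counts moved with single arrays. Of 48 h to 96 h, the higher count was 4 or 5 without any one array of 0 h, 48 h or 96 h and 11 without either 144 h array, and the lower count 11 without array 1 of 96 h and 12 without array 1 of 48 h. The 96 h to 144 h counts were 7 and 1 without either 0 h array, 3 and 1 without array 1 of 96 h, 19 and 1 without array 1 of 144 h, and 10 and 5 without array 2 of 144 h. Without array 2 of 96 h they were 4 and 0, with 4 lower at an unadjusted p below 0.05 in limma. The 48 h to 144 h counts were 3 and 4 without either 48 h array, 10 higher without array 1 of 144 h, and 15 lower without array 2 of 144 h.

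Lists chosen by pathway covered mostly signalling components, related ligands and receptors, adhesion partners and interferon response genes. Pathway activity itself was not measured. Of all named genes, 18.1%, 21.5% and 19.2% were higher at 48 h, 96 h and 144 h than at 0 h, and 15.9%, 23.3% and 17.6% lower. These shares stand beside the counts of every list that follows, and no difference from them was tested. Of 29 measured NF-kB pathway genes, 11 were higher and 3 lower at 48 h, 16 and 4 at 96 h, and 14 and 2 at 144 h, with medians of 0.40, 0.39 and 0.42, against -0.04, -0.03 and -0.05 over all features. The largest differences at 144 h were those of the adaptor TRAF5 (2.94 ± 0.17), the kinase MAP3K8 (2.38 ± 0.15) and IRAK3 (1.88 ± 0.13), which restrains signalling from the IL-1 receptor. The NF-kB inhibitor NFKBIA, named after its value was seen, differed by -0.54, -1.08 and -1.11 (adjusted p = 0.0492, 0.00122 and 0.00149), and its call at 48 h was lost without any one array of 0 h, 48 h or 96 h (adjusted p from 0.00298 to 0.172). Of 16 JAK and STAT pathway genes, 7 were higher and 2 lower at 48 h, 5 and 6 at 96 h, and 7 and 5 at 144 h, with medians of 0.01, -0.16 and 0.24. JAK3, the kinase that works with IL2RG, differed by -1.45 ± 0.18 at 144 h, and STAT6, which acts below IL4R, by 1.41 ± 0.11. JAK1, a kinase of gp130 and many other cytokine receptors, differed by 1.09 ± 0.14.

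Of 29 related ligands and receptors outside the symbol rule, 6 were higher and 2 lower at 48 h, 5 and 2 at 96 h, and 6 and 4 at 144 h, with medians of 0.04, -0.03 and -0.03. OSMR, the oncostatin M receptor chain that pairs with gp130, read 3.66 and 3.36 at 0 h and between 7.57 and 8.14 in culture, a difference of 4.57 ± 0.16 at 144 h. CLCF1, another cytokine of the LIF family, differed by 1.74 ± 0.23, and EDA, a TNF family ligand of skin appendages, by -3.79 ± 0.18 at 144 h. TNF itself, named after its value was seen, read 4.38 and 4.33 at 0 h and between 3.24 and 3.49 in culture. Of 10 measured leukocyte adhesion partners, 3 were higher at 48 h, 5 higher and 1 lower at 96 h, and 6 higher at 144 h, with medians of 0.25, 0.59 and 0.83. ITGA4, a subunit of the integrin that binds VCAM1, read 4.35 and 4.12 at 0 h, 7.45 and 7.74 at 48 h, 8.82 and 8.82 at 96 h, and 6.61 and 5.46 at 144 h. Its differences were 3.36 ± 0.32, 4.59 ± 0.32 and 1.80 ± 0.32. F11R, a junctional adhesion molecule, differed by 2.30 ± 0.15 and ICAM1 by 1.38 ± 0.14 at 144 h.

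Most interferon response genes were lower in culture than at 0 h, as were CXCL10, CXCL11 and TNFSF10, which interferons are known to induce. Of 17 measured, 13 were lower at 48 h, 12 at 96 h and 15 at 144 h, with medians of -1.08, -1.68 and -1.23. None was higher by limma, and 0 were higher at an unadjusted p below 0.05 at any of these times. Their mean level was 6.28 and 6.30 at 0 h, 4.93 and 5.02 at 48 h, 4.42 and 4.43 at 96 h, and 4.92 and 4.82 at 144 h. Between later times, 9 of the list were lower and 1 higher at 96 h than at 48 h, against 16.9% and 14.3% of named genes. At 144 h, 8 were higher and 1 lower than at 96 h, against 13% and 10.1%. With all arrays, CXCL10, CXCL11 and TNFSF10 were not called in either of these comparisons. IFIT1, an antiviral RNA-binding protein, differed by -3.43 ± 0.15 at 144 h, the ubiquitin-like ligase HERC5 by -2.67 ± 0.14 and the GTPase MX2 by -2.67 ± 0.28. Whether the fall of the chemokines depends on that of these genes was not tested.

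**Figure D4:**
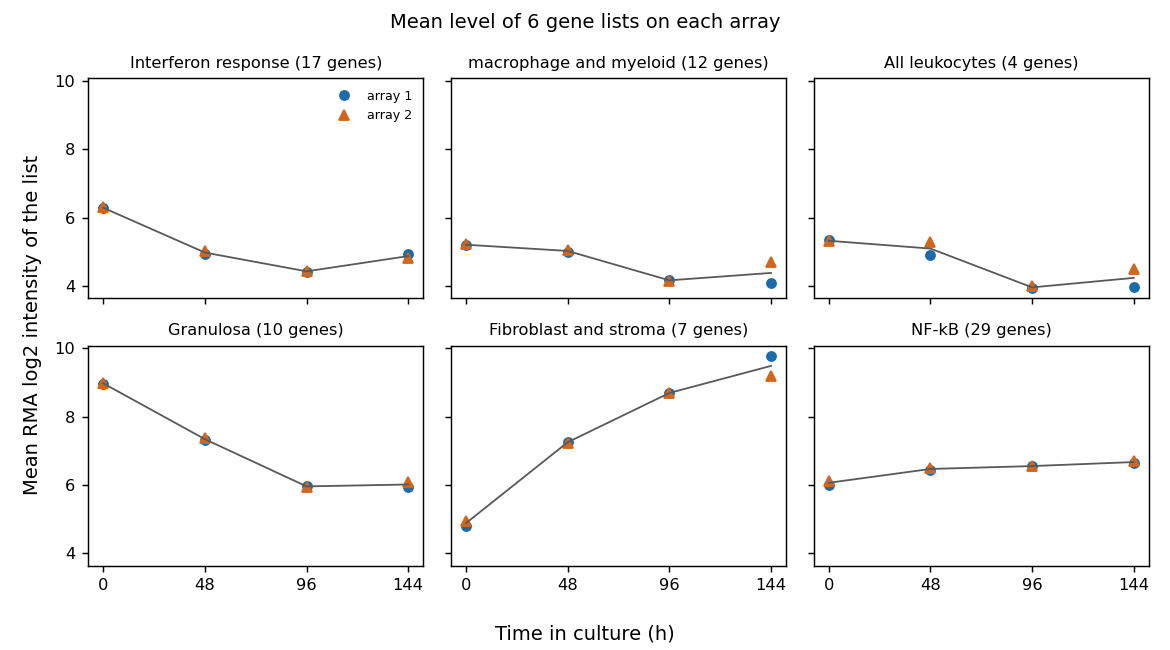
Mean log2 intensity (vertical axis) of the genes of 6 lists against time in culture (horizontal axis), with a circle for array 1 and a triangle for array 2 of each time and a line through their mean. The interferon response, macrophage, leukocyte and granulosa lists are lower at 96 h than at 0 h on both arrays, the fibroblast list is higher, and array 2 of 144 h is above array 1 in the macrophage and leukocyte lists.

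Cell type markers moved as well. The shares of all named genes beside their counts are again 18.1%, 21.5% and 19.2% higher and 15.9%, 23.3% and 17.6% lower. Of 16 granulosa markers, 10 had a named feature, among them AMH, LHCGR and NR5A2. Their mean level was 8.96 and 8.99 at 0 h, 7.32 and 7.36 at 48 h, 5.98 and 5.95 at 96 h, and 5.94 and 6.10 at 144 h, with 7, 9 and 9 lower than at 0 h. FSHR, CYP19A1 and FOXL2 had no named feature and could not be checked. Of 7 fibroblast and stroma markers, 6, 7 and 7 were higher, and their mean level went from 4.81 and 4.96 at 0 h to 9.78 and 9.20 at 144 h. Of 12 macrophage and myeloid markers, 1, 2 and 2 were higher and 1, 7 and 7 lower, and their mean level was 5.19 and 5.22 at 0 h, 5.00 and 5.04 at 48 h, 4.17 and 4.15 at 96 h, and 4.07 and 4.69 at 144 h, with 2 or 3 below the lower quartile. Of 4 markers of all leukocytes, none was called by limma at 48 h (0 at an unadjusted p below 0.05), and 4 were lower at 96 h and at 144 h. Their mean level was 5.34 and 5.30 at 0 h, 4.89 and 5.29 at 48 h, 3.93 and 3.98 at 96 h, and 3.97 and 4.50 at 144 h. The median differences of the leukocyte markers from 0 h were -0.30, -1.07 and -0.82 at 48 h, 96 h and 144 h, and those of the macrophage markers -0.14, -1.06 and -1.02. CCL8, CCL3L1, IL10 and IL2RG, picked here after their values were seen, were lower at 96 h, as were most of these markers. At 48 h, CCL8, CCL3L1 and IL2RG were also below both 0 h arrays. CCL4 was lower at 96 h (-2.53) and had already been called at 48 h (-1.52). CCL5 was higher at 48 h (0.67) and lower at 96 h (-0.59). Of all members, 18 were lower and 18 higher at 96 h than at 0 h (15.8% each, against 23.3% and 21.5% of named genes). IL10RA (2.37) and TNFRSF8 (3.14), also picked here after their values were seen, were among the higher. The part of leukocytes and macrophages in any of the falls was not tested. Of 14 T, B and NK cell markers, 2 were lower at each time and none, 2 and 1 higher. Among 6 endothelial markers, 1 was higher and 1 lower at each time, and among 3 theca markers 1 was lower.

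Members that lie side by side in the genome did not all move together. In the RefSeq gene order of the pig, 50 of the 114 genes lie in 18 runs with at most 3 protein-coding genes between neighbours. CCL1, CCL8, CCL11 and CCL2 are adjacent: CCL2 rose at 48 h while CCL8 fell at 96 h. IL18RAP, IL18R1, IL1RL1, IL1R1 and IL1R2 form another run, in which IL1RL1 and IL1R1 rose and the other 3 stayed below the lower quartile. In the run of CXCL9, CXCL10 and CXCL11, CXCL9 was below the lower quartile at every time, while CXCL10 and CXCL11 were lower at 96 h. IL31RA, below the lower quartile at every time, lies next to IL6ST. This gives position only.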

How the data were processed

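RNA of the 8 samples was measured on Affymetrix arrays, and the deposited values are log2 intensities per feature, made by the authors with RMA per the submitters' processing notes (no version is given in the sources used here). RMA corrects background, normalizes between arrays and summarises probes, and tends to compress differences at low levels. Feature names came from the platform annotation: 11735 features had 1 symbol, 612 several (239 of these 1 repeated symbol) and 15211 none. Features with mixed symbols were not used, among them one annotated CCR1 and XCR1 and one annotated IL1B and IL1B2. All 114 members had an entry in the RefSeq table (Sscrofa11.1), used for names and gene order.

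The test was limma 3.58.1 in R 4.3.3 (lmFit, eBayes, two-sided), with 1 fit over all 8 arrays and 27558 features, 4 residual degrees of freedom and Benjamini-Hochberg adjustment over all features. The median SE of a difference was 0.1426, and precision is limited by having 2 arrays per time. In a test of the code on drawn data for 48 h against 0 h with 27558 features, 7.6% of changes of 0.5 log2 units, 87.6% of changes of 1 and 100% of changes of 2 or 3 were called. These shares belong to the drawn data and do not give the power of the test on the measured arrays.

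The members and lists were chosen with earlier results of these data known. Named were LIF, VCAM1, the 15 largest called and separated rises and the 15 largest falls against 0 h, the 5 largest changes each way between later times, and enough others for each class to have 2, in lists the 3 largest called differences at 144 h. Lists were NF-kB, JAK and STAT, related ligands and receptors, adhesion partners, interferon response, and 7 sets of cell type markers. No detection call was used, and sequencing depth does not apply to arrays. Array numbers were not taken to pair the samples, as the labels do not give the origin of the arrays. Correlations of same-numbered deviations ran from -0.04 to 0.19. With 2 arrays per time, they cannot decide whether same-numbered arrays share an origin. Alternatives were other normalizations, filters, thresholds and fits, and each array left out.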

Additional observations from a re-analysis of the deposited data

How the results depend on the processing

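With 2 arrays per time and no detection calls, small differences and levels near the lower quartile are the least certain. Median centring, quantile normalization and cyclic loess each ended the calls of CXCL11 at 48 h and 144 h and of CCL24 and TNFSF4 at 96 h, against 0 h. Counts of members called that moved by over 1.5 times are given here, as higher or lower in a comparison. After cyclic loess, 6 were lower at 48 h against 0 h and 4 higher at 96 h against 48 h. With dim features left out, 1 was lower at 144 h against 96 h. With only the 4 arrays compared, 7 were lower at 144 h against 0 h, 5 higher and 0 lower at 144 h against 96 h (5 lower at an unadjusted p below 0.05 in limma), and 3 higher and 3 lower at 144 h against 48 h. At an adjusted p below 0.01, 5 were lower at 48 h and 5 at 144 h against 0 h, 4 higher and 11 lower at 96 h against 48 h, 3 higher and 0 lower at 144 h against 96 h (8 lower at an unadjusted p below 0.05 in limma), and 3 higher and 4 lower at 144 h against 48 h. With a difference of at least 2-fold, 5, 7 and 5 were lower at 48 h, 96 h and 144 h against 0 h, 9 lower at 96 h against 48 h, 2 higher and 1 lower at 144 h against 96 h, and 6 lower at 144 h against 48 h. In 2 fits chosen after seeing the data, 11 were higher at 96 h against 48 h without both 144 h arrays, and 7 lower at 48 h against 0 h without both 96 h arrays.

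Leaving out each array in turn gave ranges of 20 to 24 higher and 5 to 17 lower at 48 h, 15 to 21 and 11 to 20 at 96 h, and 19 to 23 and 5 to 18 at 144 h, all against 0 h. Against 48 h, they were 4 to 11 and 11 to 25 at 96 h and 3 to 10 and 4 to 15 at 144 h. For 144 h against 96 h they were 3 to 19 and 0 to 5, and the F test gave 35 to 50. The time of the array left out then rests on 1 array, assumed to vary like the others. Without array 1 of 144 h, CXCL8 at 144 h against 0 h turned from -0.05 to 0.72 (-0.83 without array 2), and IL1RL1 at 144 h against 48 h from -0.04 to 0.82 (-0.91 without array 2).

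With the replicate number as a block, 24 were higher and 9 lower at 48 h, 18 and 19 at 96 h, and 20 and 13 at 144 h against 0 h. The later comparisons gave 7 and 20, 11 and 3, and 6 and 9, and the F test 44. The labels give these arrays only a shared number, so it is not known whether this pairing is part of the design.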
